A study of Dugesia japonica with 18 samples.

Results

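Of 25566 gene models, the 17129 that passed a filter on low counts were compared between day 3 and day 1 after X-irradiation in whole-body RNA of the freshwater planarian Dugesia japonica. The groups compared hold 6 of the 18 libraries of the series, chosen by the sampling day in the labels and in the deposited sample table. These are 3 biological replicates of day 3 and 3 of day 1. Animals of both groups were of the clonal strain SSP, measured approximately 5 mm, had been starved beforehand and had received 150 Roentgens of X-rays. The remaining libraries, 3 each of days 0.5, 5 and 7 after irradiation and of day 0, served to follow the same gene models over the week. They also entered the filter, the scaling and the estimate of spread behind the comparison. Day 0 is without irradiation per the design text of the series, but the labelled treatment states the X-ray dose for every sample and makes no exception for day 0. Day 0 is taken here as the design text has it. Both groups of the comparison were irradiated, and the libraries analysed here hold no unirradiated animals of day 3 or day 1. Effects of irradiation and of elapsed time cannot be told apart between them. All animals came from 1 clonal strain, and no source used here gives the number of animals per library.

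Planarians renew their tissues from dividing stem cells, the neoblasts, which are lost after strong X-irradiation, whereas differentiated cells persist for longer. In Schmidtea mediterranea, another freshwater planarian, neoblast transcripts are known to disappear first after irradiation, and transcripts of the epidermal progenitors that neoblasts give rise to disappear later, as those cells mature without being replaced. The files identify gene models only by IDs such as DjGI000249-005, and do not pair them with gene names. Markers of neoblasts, of their progeny or of whole-body tissues could therefore not be looked up, and no role is given to any gene model here. In RNA of whole animals, fewer cells of a type and less RNA per cell cannot be told apart.

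Messenger RNA was counted at the 3' end with Lasy-Seq, in which each RNA sample receives its own index at reverse transcription before the samples are pooled. Libraries held 8185189 to 9623030 counts at day 3 and 8995350 to 9774946 counts at day 1, a difference that did not pass an exact two-sided permutation test (p = 0.4, the smallest value for 3 against 3 libraries being 0.1). At least 1 count was found for 21230 to 21665 gene models in day 3 libraries and 21541 to 21638 in day 1 libraries. The first principal component of log2 CPM (read counts relative to the library total scaled by trimmed means of M values) over the 6 libraries held 36.1% of the variance, with day 3 libraries between -19.0 and -16.7 and day 1 libraries between 16.3 and 19.7.

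Between day 3 and day 1, far more gene models fell than rose. Of 17129 gene models tested, 517 (3.02%) passed the edgeR quasi-likelihood test at an adjusted p below 0.05; 424 of them (2.48% of those tested) fell and 93 (0.543%) rose. Falls were also larger: falling gene models had a median log2 change of -0.60 and rising ones of 0.41, beside -0.0019 over all gene models tested. Put as levels, those that fell kept a median of 65.8% of their day 1 level at day 3, with quartiles of 52.1% and 72.3%. A fall of at least 2-fold was found for 91 gene models (0.531% of those tested) and a rise of at least 2-fold for 5 (0.0292%). At least 4-fold falls numbered 20 and at least 16-fold falls 11, and 1 gene model rose at least 4-fold. When tested against a change of 1.5-fold rather than against no change, 42 gene models fell and 0 rose with edgeR. At an unadjusted p below 0.05 that edgeR test had 247 falls and 47 rises among the 17129 gene models. In the test against no change, 17 rises of at least 1.5-fold passed. All 3 day 3 libraries lay below all 3 day 1 libraries for 2104 gene models (12.3%) and above them for 1707 (9.97%), and every gene model called was among these.

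These counts moved with single libraries. The total of 517 was lower whichever of the 6 libraries was left out, at 251 to 367. The total was 337 without day 3 replicate 2, 251 without day 3 replicate 3, and 277 when day 1 replicate 3 was left out. Without day 1 replicate 1 it was 61.3% of the 517. Leaving out day 3 replicate 3 gave 216 falls, and leaving out day 1 replicate 3 gave 255. In day 3 replicate 3 its own 10 most abundant gene models held 20.3% of counts, against 18.5% for those of each of the other day 3 libraries. Separately, the 10 gene models most abundant over all 18 libraries were removed with every library kept, and 516 gene models were called. The part of abundant gene models in the 251 calls was not tested. Rises were between 22 and 37 when any one of the 6 libraries was left out, and at least 2-fold rises between 1 and 3. Falls made up 82.0% of the calls, 71.3% with DESeq2 (191 rises) and 72.1% in the fit of the 6 libraries alone (229 rises), whereas scaling by the ERCC control RNAs gave 13 rises and 127 falls.

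**Figure D1:**
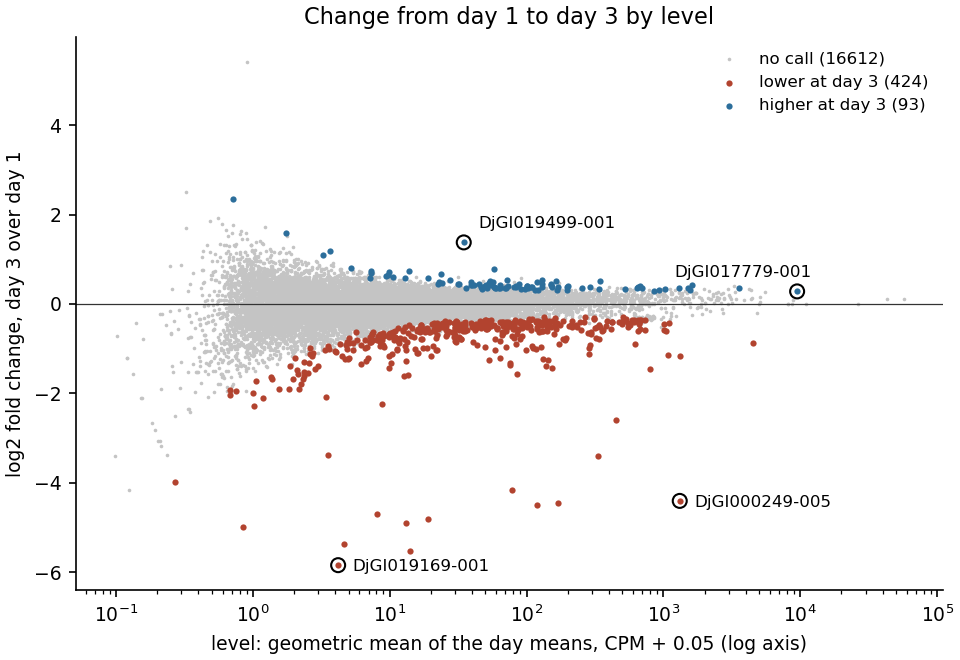
Each point is 1 of the 17129 gene models tested, with the geometric mean of its day 3 and day 1 mean CPM on a log axis and its log2 fold change, day 3 over day 1, on the vertical axis; red points (424) were called lower at day 3, blue points (93) higher, and circles mark the 4 named gene models. The called falls spread down to a log2 change of -5.85, and most called rises lie close to the cloud of uncalled points.

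Calls were most frequent among well-expressed gene models. With a mean of 100 to 1000 CPM over all 18 libraries, 108 of 1138 gene models fell (9.49%) and 32 rose (2.81%). Between 10 and 100 CPM, 228 of 6677 fell (3.41%) and 46 rose (0.689%). Between 1 and 10 CPM, 81 of 8419 fell (0.962%) and 9 rose (0.107%). The median standard error of the log2 change was 0.094 in the first of these classes and 0.28 in the last. Among the falls, the median log2 change was -0.50 in the first class and -1.03 in the last. Above 1000 CPM, 5 of 125 gene models fell and 6 rose. Levels are CPM at the 3' end and are not divided by transcript length.

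Gene models that fell held a smaller share of the reads at day 3. The 424 together held 4.27%, 4.32% and 3.98% of all counts in day 3 replicates 1 to 3, against 7.35%, 7.17% and 7.63% in day 1 replicates 1 to 3. The 93 that rose held 3.49%, 3.53% and 3.51% at day 3 and 2.72%, 2.84% and 2.79% at day 1. The gene models were called on these same libraries, so these shares are a description. When gene models were called without 1 library, their shares were smaller: falls held 2.15% to 4.18% of counts at day 3 and 4.58% to 7.31% at day 1, with the lowest values without day 3 replicate 3. Rises called without any one of the 6 libraries held 0.52% to 1.16% at day 3 and 0.389% to 0.895% at day 1, the lowest without day 1 replicate 3. The loss was concentrated in few gene models. Of the summed fall in mean CPM, 12 gene models held 50% and 137 held 90%. Of the summed rise, 5 gene models held 50%, and DjGI017779-001 alone held 24.8%.

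DjGI000249-005 lost more CPM than any other gene model called, 18.3% of the summed fall. It stood at 330, 296 and 231 CPM in day 3 replicates 1 to 3 and at 6142, 5423 and 6611 CPM in day 1 replicates 1 to 3. The groups were far apart relative to the spread within each group. The log2 change was -4.41 ± 0.13 (SE; edgeR adjusted p = 7.48e-20), a 21.2-fold fall. Means and SD of 3 libraries show when it fell: day 0 had 6217 ± 948 CPM, day 0.5 had 6563 ± 560, day 1 had 6059 ± 598, day 3 had 286 ± 50.2, day 5 had 133 ± 5.3 and day 7 had 141 ± 16.5. Day 1 was not called against day 0 (log2 change -0.037 ± 0.12 SE; edgeR adjusted p = 0.876), nor was day 7 against day 5 (0.082 ± 0.12 SE; edgeR adjusted p = 0.822). Day 5 was lower than day 3, by -1.10 ± 0.12 on the log2 scale (SE; edgeR adjusted p = 3.38e-07).

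DjGI019169-001 had the largest fall in log2 terms among gene models with at least 20 CPM in the higher group. It stood at 0.24, 0.37 and 0.92 CPM in day 3 replicates 1 to 3 and at 33.4, 19.0 and 41.7 CPM in day 1 replicates 1 to 3. These levels rest on 14 counts in the day 3 libraries together and 887 in the day 1 libraries. The groups did not overlap, although the day 1 libraries themselves differed by more than 2-fold. The log2 change was -5.85 ± 0.45 (SE; edgeR adjusted p = 3.41e-10). Its summed share of counts was 59.8 times lower at day 3 than at day 1, with an exact 95% interval of 35.5 to 110 that covers counting error only. Its later means were as low, with 0.51 ± 0.29 CPM on day 5 and 0.55 ± 0.83 CPM on day 7 (SD of 3 libraries).

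DjGI019499-001 rose most among gene models with at least 20 CPM in the higher group. Its levels were 51.4, 45.3 and 70.7 CPM in day 3 replicates 1 to 3, against 16.0, 31.7 and 17 CPM in day 1 replicates 1 to 3. Day 3 lay above day 1 in every library, with a wide spread in both groups. The log2 change was 1.38 ± 0.26 (SE; edgeR adjusted p = 0.00205). Day 1 was the low point of its course: as mean and SD of 3 libraries, day 0 had 43.4 ± 7.39 CPM, day 0.5 had 39.4 ± 5.91, day 1 had 21.6 ± 8.82, day 3 had 55.8 ± 13.2, day 5 had 45.3 ± 16.5 and day 7 had 61.0 ± 29.6. Relative to day 0 the day 1 level was lower (log2 change -1.0 ± 0.27 SE; edgeR adjusted p = 0.00721), and the day 3 level did not pass the test (log2 change 0.38 ± 0.25 SE; edgeR adjusted p = 0.268). Day 1 libraries entered the choice of this gene model, so its low day 1 level follows in part from the choice. The change from day 0.5 to day 5, which uses no library of day 3 or day 1, was not called. Its log2 change was 0.19 ± 0.26 (SE, edgeR adjusted p = 0.669). The other 4 gene models that rose at least 2-fold averaged under 20 CPM at day 3.

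DjGI017779-001 gained more CPM than any other gene model called, and its level was high in both groups. It stood at 10512, 10612 and 10233 CPM in day 3 replicates 1 to 3, against 8284, 9040 and 8467 CPM in day 1 replicates 1 to 3. The groups did not overlap, but the change was small, 0.28 ± 0.079 on the log2 scale (SE; edgeR adjusted p = 0.0471). This call was at the edge of the threshold: the edgeR adjusted p was 0.0524 with RLE size factors, 0.0556 with the replicate number as a block, 0.338 with ERCC scaling and 0.062 to 0.19 when any one of the 6 libraries was left out.

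**Figure D2:**
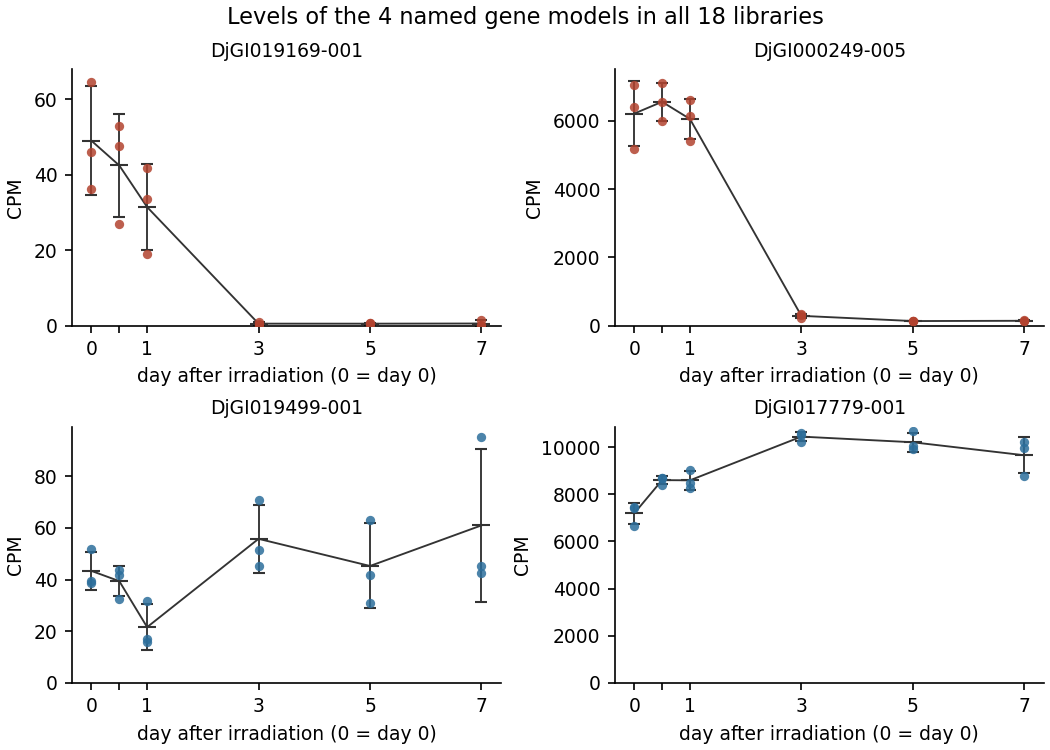
CPM of the 4 named gene models in all 18 libraries (points) by day after irradiation, with the mean and SD of the 3 libraries of each day (bars) joined by lines; each panel has its own axis from 0. DjGI019169-001 and DjGI000249-005 drop between days 1 and 3 and stay low, and the mean of DjGI019499-001 is lowest at day 1. The mean of DjGI017779-001 is 10452 CPM at day 3 and 10212 CPM at day 5, and its highest single library is day 5 replicate 3 (10681 CPM).

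The ID of DjGI000249-005 shares its first number with 4 other gene models, and all 5 fell between day 3 and day 1. Together they held 0.481%, 0.524% and 0.470% of counts in day 3 replicates 1 to 3, against 1.61%, 1.51% and 1.75% in day 1 replicates 1 to 3. They made up 35.6% of the summed fall in CPM. Without them, 419 falls held 3.70 ± 0.16% of day 3 counts and 5.76 ± 0.12% of day 1 counts (SD of 3 libraries).

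The 5 gene models fell by very different amounts. Compared with its day 1 mean, DjGI000249-005 kept 4.71% at day 3, and the others kept 9.47%, 36.7%, 45.4% and 54.7%. The member that kept most had a day 3 mean of 3350 ± 246 CPM and a day 1 mean of 6119 ± 167 CPM (SD of 3 libraries), and its log2 change of -0.87 had an SE of 0.088 (edgeR adjusted p = 1.02e-07). That gene model and DjGI000249-005 had nearly equal levels at day 1 and differed more than 10-fold at day 3. The share of DjGI000249-005 in the CPM of all 5 was 6.69%, 5.58% and 4.99% in day 3 replicates 1 to 3, against 37.8%, 35.9% and 38.3% in day 1 replicates 1 to 3. None of the 5 was called at day 1 against day 0 (edgeR adjusted p of 0.734 to 0.884), where 12.8% of all gene models tested were lower and 7.15% higher. All 5 were lower at day 5 than at day 0.5 by edgeR, a comparison with no library of day 3 or day 1, in which 11.8% of all gene models tested were lower and 7.93% higher. Counting may have split reads among IDs of 1 first number where their sequences are near-identical, so the level of each is uncertain; their sequences were not analysed here.

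**Figure D3:**
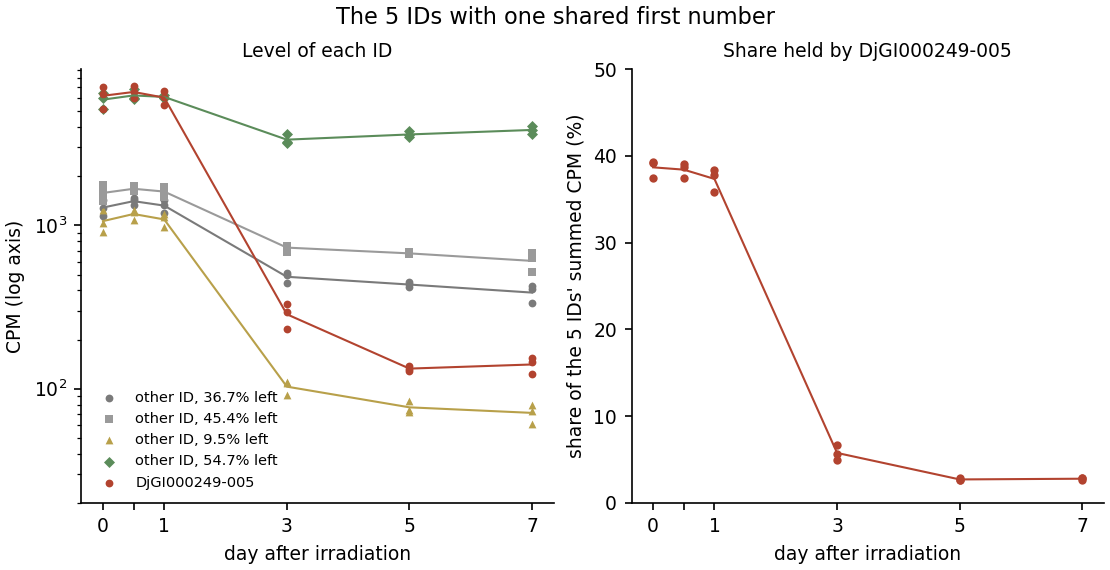
Left, CPM of the 5 gene models whose IDs share 1 first number, on a log axis, by day after irradiation, with 1 point per library and lines through the day means; for the other 4 the legend gives the day 3 mean as a percentage of the day 1 mean. Right, the share of DjGI000249-005 in the summed CPM of the 5, near 37% at day 1 and near 6% at day 3.

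Among all gene models tested, 5723 (33.4%) share their first number with another one tested, and among those called 134 (25.9%) do. In 36 first numbers, 2 or more IDs were called, 85 IDs in all, and in each of the 36 all called IDs moved in the same direction, beside the 82.0% of all calls that fell. What a shared first number stands for is not given in the files, and IDs that share one may not be independent of each other.

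A small group fell far more steeply than the rest. With a limit of 8-fold, chosen after the sizes of the falls were seen, 14 gene models of 13 first numbers were found, including DjGI000249-005, DjGI019169-001 and 1 other ID of the first number described above. The smallest fall inside the limit was -3.37 on the log2 scale and the largest outside was -2.60. Their summed share of counts was 0.0527%, 0.0497% and 0.0404% in day 3 replicates 1 to 3, against 0.933%, 0.825% and 1.01% in day 1 replicates 1 to 3. Single gene models ranged from 0.034 to 286 CPM at day 3 and from 0.818 to 6059 CPM at day 1. As mean and SD of 3 libraries, their summed share was 0.966 ± 0.089% on day 0, 0.988 ± 0.083% on day 0.5, 0.923 ± 0.093% on day 1, 0.0476 ± 0.0064% on day 3, 0.0269 ± 0.0016% on day 5 and 0.0274 ± 0.0013% on day 7. DjGI000249-005, with the highest level of the 14 at day 1, weighs heavily in this sum. The median CPM of the 14 was 119 on day 0, 109 on day 0.5, 82.3 on day 1, 2.24 on day 3, 1.15 on day 5 and 1.80 on day 7, and so was lower on day 1 than on day 0. The 14 were chosen for their change between day 3 and day 1, so the size of the drop in that interval follows from the choice. At day 0.5, 12 of the 14 were not called against day 0 by edgeR, where 7.44% of all tested were lower and 2.59% higher. At day 1, 8 were lower than at day 0 and 6 were not called, beside 12.8% lower of all tested. All 14 were lower at day 5 than at day 0.5, beside 11.8% of all tested, and none of the 14 was called from day 5 to day 7 in either direction, where 1.62% of all tested fell and 0.981% rose.

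The called gene models were then followed in libraries of days other than day 3 and day 1. Of the 424 that fell between day 3 and day 1, 384 (90.6%) were lower at day 5 than at day 0.5 and 0 were higher by edgeR, beside 11.8% lower and 7.93% higher of all gene models tested. The median log2 change of the 424 was -0.94, and 421 of them had a negative change. Of the 93 that rose, 67 (72.0%) were higher at day 5 than at day 0.5 and 0 were lower, with a median log2 change of 0.41. The comparison of day 5 with day 0.5 shares no library with that of day 3 and day 1, but the filter, the scaling and the estimate of spread come from 1 fit. Called gene models had higher levels than most: the median day 1 level was 48.9 CPM for falls and 61.6 CPM for rises, beside 8.71 CPM over all tested. The part of level in these call shares was not tested. With the falls and rises called without 1 library, the falls that were also lower at day 5 numbered 201 without day 3 replicate 3, and 243 when day 1 replicate 3 was left out. The rises that were also higher numbered 17 to 30 without any one of the 6 libraries compared and 41 without day 0.5 replicate 3.

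Early after irradiation the falling gene models had taken no single direction. At day 0.5, 132 of the 424 (31.1%) were lower than at day 0 and 38 (8.96%) were higher, beside 7.44% and 2.59% of all tested (edgeR). Of the 93 that rose, 19 (20.4%) were already higher at day 0.5 than at day 0 and 2 were lower.

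The state at day 1 divided the 424 falls into 3 classes. At day 1, 175 of them were already lower than at day 0, 176 were not called and 73 were higher, beside 12.8% lower and 7.15% higher of all tested. Day 1 libraries entered both this division and the comparison with day 3, so the size of the change within a class is given as a value only: the median log2 change between day 3 and day 1 was -0.59 in the class lower at day 1, -0.61 in the class not called and -0.60 in the class higher at day 1. The median log2 change, day 3 over day 0, was -1.41 in the class lower at day 1, -0.63 in the class not called and -0.10 in the class higher at day 1. In this last class, at day 3, 17 of 73 were lower than at day 0, 12 were higher and 44 were not called, beside 18.5% lower and 13.3% higher of all tested (edgeR). Day 0 libraries entered both the division and the comparison of day 3 with day 0, so the order of these medians follows from the division. The comparisons of day 3 with day 0 and with day 1 also share the day 3 libraries.

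What came later differed in value between the classes. From day 5 to day 7, a comparison that shares no library with the division, 3 of 175 (1.71%) fell in the class lower at day 1 and 25 of 176 (14.2%) in the class not called. In the class higher at day 1, 34 of 73 (46.6%) fell and 1 rose. Of all gene models tested, 1.62% fell in that interval and 0.981% rose (edgeR). The median log2 changes were -0.13, -0.22 and -0.48 in the order of the classes. Between day 5 and day 0.5 the classes were closer, with 165 of 175 (94.3%), 154 of 176 (87.5%) and 65 of 73 (89.0%) lower. Whether the classes differ from each other was not tested.

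Relative to day 1, the median log2 level of the 93 rises was 0.41 on day 3, 0.48 on day 5 and 0.49 on day 7. The 93 were called on the same day 1 libraries, so levels above day 1 follow in part from the choice. From day 5 to day 7, 2 of the 93 rose and 3 fell, beside 0.981% and 1.62% of all tested. At day 1, 25 of them (26.9%) were already higher than at day 0, 62 were not called and 6 (6.45%) were lower, beside 7.15% higher and 12.8% lower of all tested. DjGI019499-001 was among these 6. Day 1 libraries entered both the division by day 1 against day 0 and the comparison with day 3.

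**Figure D4:**
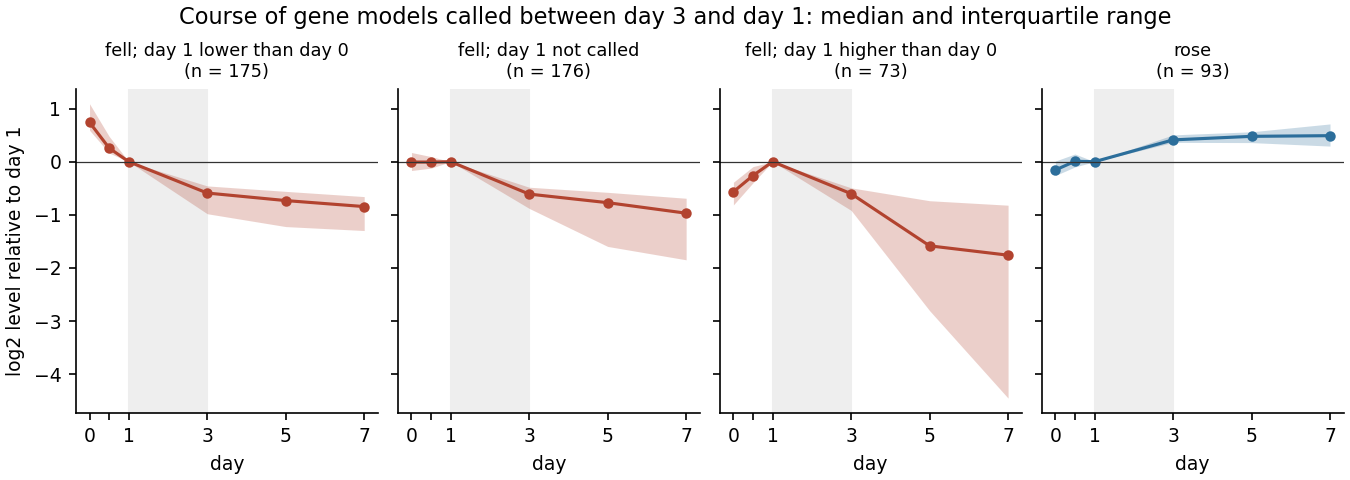
Median (line) and interquartile range (band) of the fitted log2 level relative to day 1, by day after irradiation, for the 3 classes of gene models that fell between day 3 and day 1 and for those that rose; grey marks the interval from day 1 to day 3. The classes fall by a similar median within the grey interval, and the class that was higher at day 1 (n = 73) continues to a median of -1.58 at day 5 and -1.76 at day 7.

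The interval from day 1 to day 3 was compared with that from day 5 to day 7, which is equally long and shares no library with it. The 2 changes differed for 192 gene models (1.12% of those tested; edgeR test of the difference, adjusted p below 0.05). For 87 (0.508%) the change from day 1 to day 3 was the lower one, with a median log2 change of -0.77 in the interval from day 1 to day 3 and of 0.35 in that from day 5 to day 7. For 105 (0.613%) it was the higher one, with medians of 0.14 in the interval from day 1 to day 3 and -0.63 in that from day 5 to day 7. The 87 and the 105 were chosen by this difference, so the order of the medians within each follows from the choice. DjGI000249-005 was among the 87, with a difference of -4.49 ± 0.18 on the log2 scale (SE; edgeR adjusted p = 2.18e-16). The named gene models were chosen for their change from day 1 to day 3, which enters this difference. Their differences between the intervals therefore follow in part from the choice. For DjGI019169-001 the difference was -5.85 ± 1.55 (SE; edgeR adjusted p = 0.0581), with few counts left in the later interval. For DjGI019499-001 and DjGI017779-001 the differences were 0.93 ± 0.37 and 0.36 ± 0.11 (SE; edgeR adjusted p = 0.254 and 0.119). In place of 192, the test found 124 without day 3 replicate 1, 107 without day 1 replicate 1 and 121 without day 5 replicate 3. In place of 87, it found 56 without day 3 replicate 3, 52 without day 1 replicate 1 and 54 without day 5 replicate 3. In place of 105, it found 61 without day 3 replicate 1, 55 without day 1 replicate 1 and 67 without day 5 replicate 3. Set against the adjoining change from day 3 to day 5, the change from day 1 to day 3 differed for 61 gene models (0.356%), 39 without day 3 replicate 1. Of the 61, the change from day 1 to day 3 was the lower one for 19 and the higher one for 42. The adjoining intervals share the day 3 libraries.

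**Figure D5:**
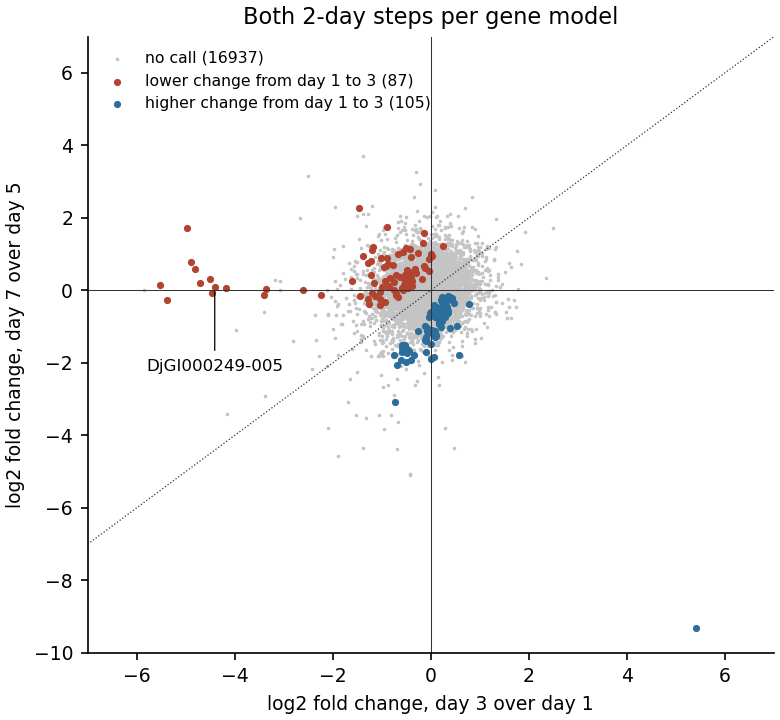
Log2 fold change from day 1 to day 3 (horizontal) against that from day 5 to day 7 (vertical) for each of the 17129 gene models tested; coloured points differed between the intervals, 87 with the lower change (red) and 105 with the higher change (blue) from day 1 to day 3, and the dotted line marks equal changes. DjGI000249-005 lies at -4.41 and 0.082, and the isolated blue point at 5.42 and -9.32 has most of its counts in 1 library of day 3 and 1 of day 5.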

How the data were processed

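The deposited table holds the authors' estimated counts per gene model, not normalized, for 18 libraries. Salmon, BWA 0.7.17-r1188 and fastp 0.21.0 are listed, with neither role nor order, per the submitters' processing notes. No source used here gives the reference or the origin of the gene models. Of 25658 rows, 92 ERCC control RNAs (0.0037% to 0.0043% of counts in the 6 libraries compared) were left out. In 34 gene models, 38 values were not whole and were rounded.

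The edgeR filter by group (minimum count 10, minimum total 15) kept 17129 of 25566 gene models. TMM factors were 0.976 to 1.01 in these 6 libraries. In edgeR 4.0.16 (R 4.3.3), a quasi-likelihood F-test was fitted over 18 libraries with 1 mean per day, two-sided, with Benjamini-Hochberg adjustment per comparison and a threshold of 0.05. The SE is the log2 change divided by the square root of F, and can be too small for falls to few counts. The fit was tested on simulated data, drawn with the same spread for every gene model, so that test gives no error rates for these data.

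Replicates are called biological by the series. The p-values set each change against the spread between replicate libraries, estimated over all 18 libraries. Source cultures are not given, so whether that spread includes differences between cultures is not known. Replicate numbers were not used as pairs: deviations of same-numbered day 3 and day 1 libraries correlated at -0.07 to -0.0031. Over all days, 45 pairs of same-numbered libraries correlated at -0.12 to 0.16, and 4 of these pairs were over 0.1.

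At most 2 IDs per direction are named, because IDs have no gene names: among called gene models without overlap and with at least 20 CPM in the higher group, the largest log2 change and the largest change in CPM. Gene groups, comparisons and alternatives were chosen with earlier results of these data known; the 8-fold limit was chosen after seeing the data. Alternatives were DESeq2 1.42.0, RLE, upper-quartile, library-total and ERCC scaling, 2 other filters, a table without its 10 most abundant gene models, thinning to 4679195 counts, a replicate block, fewer libraries in the fit, summing over first numbers, a 1.5-fold test and leaving out each library.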

Additional observations from a re-analysis of the deposited data

Results flagged for a closer look

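The change from day 1 to day 3 differed from that from day 5 to day 7 for 192 gene models by the edgeR test of the difference. DjGI000249-005 was the only named gene model among them, with a log2 difference of -4.49 between the intervals. It had been chosen for its fall from day 1 to day 3, so this difference follows in part from the choice. Counts of the 192 by direction, and the libraries on which they rest, stand beside the comparison above.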

How the results depend on the processing

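Against 517 calls (424 falls, 93 rises), ERCC scaling gave 140 (127 and 13), the test against a 1.5-fold change 42 (42 and 0) and the 6 libraries alone 822 with 229 rises; DESeq2 gave 191 rises. The cause was not tested, except that the 1.5-fold test sets a larger minimum change. ERCC scaling rests on at most 396 ERCC counts in each of the 6 libraries. Falls made up 82.0% of calls, 71.3% with DESeq2, 72.1% with the 6 libraries alone and 92.1% without day 1 replicate 3. At least 2-fold falls numbered 91, with 56 by DESeq2, 60 with ERCC scaling and 40 with the 1.5-fold test. At least 2-fold rises numbered 5, with 1 by DESeq2, 8 with no filter, 3 with at least 30 counts in 3 libraries, 2 in thinned libraries, 3 with summed first numbers and 0 with the 1.5-fold test. Falls of at least 8-fold numbered 14, and 12 to 15 over 19 alternatives. The difference between the intervals, 192 (87 lower, 105 higher), became 324 with DESeq2 (204 higher), 97 with ERCC scaling (35 and 62) and 360 with no filter (188 and 172); 159 were higher with library totals. Falls also lower at day 5 than day 0.5 numbered 384, and 123 with ERCC scaling. Rises also higher numbered 67, with 159 by DESeq2, 107 with library totals, 7 with ERCC scaling and 155 with only the libraries compared.

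Leaving out 1 library gave 251 to 367 calls, 216 to 332 falls, 22 to 37 rises, 66 to 91 falls and 1 to 3 rises of at least 2-fold. It gave 107 to 240 differences between the intervals (52 to 120 lower, 55 to 154 higher), 39 to 57 between the adjoining intervals, 201 to 434 falls also lower at day 5 and 17 to 68 rises also higher. The falls held 2.15% to 4.18% of counts at day 3 and 4.58% to 7.31% at day 1, and the rises 0.52% to 1.16% and 0.389% to 0.895%.

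With the replicate block, 510 gene models were called (430 falls, 80 rises), and DjGI017779-001 lost its call. The calls of DjGI019169-001, DjGI000249-005 and DjGI019499-001 held under the 17 alternatives run for each. Under 1 CPM, 2 of 770 gene models were called, at a median SE of 0.60 on the log2 scale, beside 0.094 between 100 and 1000 CPM.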

Other observations

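In the whole table, 46 gene models had counts in all 3 day 3 libraries and 0 in all 3 day 1 libraries, and 64 had counts in all 3 day 1 libraries and 0 in all 3 day 3 libraries. The highest sum of counts was 14 among the 46 and 12 among the 64.

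The highest fitted rise from day 1 to day 3, a log2 change of 5.42, was not called (edgeR adjusted p = 0.149). It rests on day 3 replicate 2, with 127 counts against 1 and 2 in replicates 1 and 3, and 0, 0 and 3 counts in the day 1 libraries. The same gene model had 176 counts in day 5 replicate 2 and 0 in the other day 5 libraries, and 24 in day 0 replicate 2 against 0 and 1.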
